A study of Mus musculus with 10 samples.

Results

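The mouse embryonic stem (ES) cell line CGR8, of strain SV129, was studied after 3 days in 1 mM EBIO and without it, and the cultures were compared across all genes that the arrays could name. The series holds 10 Affymetrix arrays, and the 6 arrays of undifferentiated ES cells were chosen by their labels: 3 of untreated control cells and 3 of EBIO-treated cells. Untreated samples 1, 2 and 3 came from passages 25, 26 and 27 of the line, and so did EBIO samples 1, 2 and 3. The labels name no vehicle for the untreated cells, and all arrays come from 1 cell line, so the spread between arrays covers 3 passages and not different lines. The 3 samples of a group stand for independent experiments, per the series' design text. The 4 arrays of differentiated cells were normalized as a separate set and were not used here. All values are the authors' log2 expression values, made with RMA, a method that corrects, equalises and summarises the probes of an array. A difference of 1 on this scale is a 2-fold change, and every difference below is EBIO minus untreated.

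EBIO (1-ethyl-2-benzimidazolinone) is a small molecule that opens the potassium channels encoded by Kcnn1 to Kcnn4, which have small or intermediate conductance and are gated by intracellular calcium. ES cells are held in self-renewal by a network of transcription factors together with the cytokine LIF, which acts through STAT3. When ES cells leave this state, they flatten and build actin stress fibres and focal adhesions. Monomeric actin holds back coactivators of serum response factor (SRF), and YAP enters the nucleus of spread cells to act with TEAD factors, so the genes of both routes are known to follow the state of the actin cytoskeleton.

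The untreated cells carried the defining genes of ES cells. All 12 ES cell markers were above the array medians in the untreated arrays, and their linear values summed to 35115 to 38210 there and to 4729 to 5244 with EBIO; all 12 fell (limma, adjusted p under 0.05). Sox2 fell least, by 0.69. With EBIO 8 of the 12 still had values above the array medians, so the samples, which are ES cells by their labels, held these transcripts at lower levels. Of 12 markers of feeder fibroblasts and mesenchyme 9 were too dim to test and none of the other 3 was called (limma; 0 at an unadjusted p under 0.05). The sums over all 12 were 227 to 245 and 211 to 238. The arrays measured bulk RNA, so fewer cells of a type and less RNA per cell cannot be told apart. Markers of other cell types moved with EBIO as follows. Smooth muscle markers summed to 353 to 642 without and 6622 to 7846 with EBIO, and 3 of 8 rose (Acta2, Tagln and Cnn1) while Myh11 and Actg2, which define mature smooth muscle, stayed too dim to test. Endoderm markers summed to 1161 to 1577 and 3114 to 3874, with 4 of 15 higher, 2 lower and 4 too dim. Most of the endoderm sum came from Sparc and Lamb1, matrix genes that other cell types express too. Mesothelial markers summed to 162 to 181 and 799 to 1259, with 3 of 7 higher and 4 too dim; with EBIO 646 to 1106 of that sum was Krt19, a keratin of many simple epithelia, and trophoblast markers to 230 to 287 and 352 to 498, with 1 of 9 (Gata3) higher and 3 too dim. The sums of endothelial, macrophage, cardiac and neural markers were 368 to 466, 189 to 251, 171 to 217 and 346 to 466 without EBIO, and 402 to 436, 174 to 191, 172 to 192 and 276 to 292 with it. In these lists Flt1 (1.20), Actc1 (0.94) and Map2 (0.96) were called higher and Tek (-1.24), Ramp2 (-0.555), Myl7 (-0.47) and Pax6 (-1.71) lower (limma). The part of other cell types in the results below was not tested.

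On the technical side, array medians lay between 4.52 and 4.62 and the arrays ended between 13.85 and 13.94. Tests were run for genes above the array median on at least 3 of the 6 arrays, which left 12168 of 18193 named genes. The untreated passage 27 array stood apart from the other 2 untreated arrays (r = 0.972 and 0.982 across tested genes, against 0.989 between those 2), and it lay nearer to the EBIO arrays (r = 0.883 to 0.896) than they did (0.867 to 0.881). The EBIO arrays correlated at 0.987 to 0.990 with each other. Without the untreated passage 27 array, 5049 of 5381 genes kept their call. RNA integrity was read from probe sets at the 2 ends of a transcript: for Actb the 3' minus 5' difference was 0.424 ± 0.087 without and 0.142 ± 0.062 with EBIO (SD, n = 3 each), and that of Gapdh was -0.005 ± 0.073 and 0.023 ± 0.019. Their part in the results was not tested.

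EBIO changed a large share of the transcriptome. Of 12168 genes tested with limma, 2820 (23.2%) were higher and 2561 (21.0%) were lower at an adjusted p under 0.05, together 5381 (44.2%). A change of at least 2-fold was called for 1198 genes upward (9.85%) and 969 downward (7.96%), of at least 4-fold for 272 and 270, of at least 8-fold for 92 and 103, and of at least 16-fold for 25 and 38. Where both group means exceeded the array medians, the counts at 16-fold were 22 and 20. With the probe sets of each gene averaged, the counts at 2-fold were 781 and 756. The median difference over all tested genes was -0.048 and the median absolute difference 0.37, against a median standard error of 0.15. The values of the 2 groups did not overlap for 3353 genes that were higher (27.6%) and 3244 that were lower (26.7%). The count of lower genes rests most on the pair of passage 26, without which it was 1552. With passage as a block, 3306 genes were higher and 3142 lower, and all 5381 calls were among them.

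**Figure D1:**
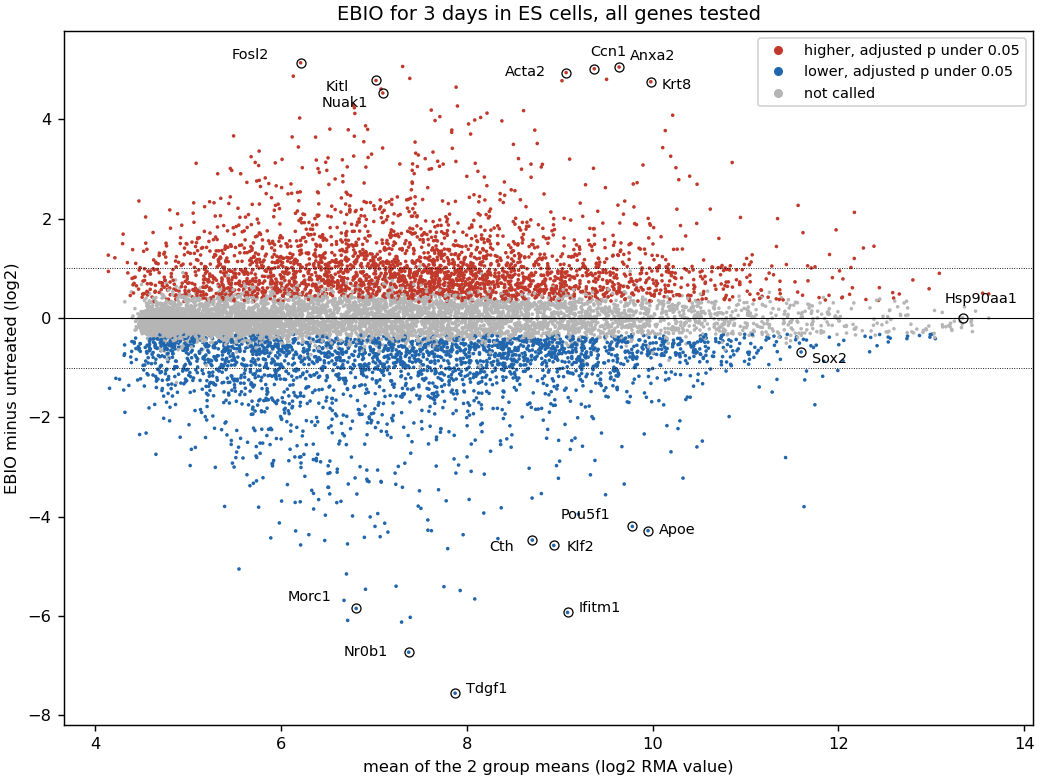
Difference between EBIO and untreated ES cells (y axis, log2) against the mean of the 2 group means (x axis, log2 RMA value) for all 12168 tested genes. Each point is a gene, red where higher and blue where lower at an adjusted p under 0.05 (limma, n = 3 arrays each); dotted lines mark 2-fold. Fosl2 and Acta2 lie near 5, Tdgf1 near -7.5 and Hsp90aa1 at 0.

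The next rises are those of genes whose group means lay above the array medians in both groups. Kitl encodes stem cell factor, the ligand of the receptor KIT. Kitl read 4.60, 4.25 and 5.05 untreated and 9.74, 8.99 and 9.50 with EBIO (passages 25, 26 and 27 in this order, here and below), and its rise was 4.78 ± 0.25 (SE, adjusted p = 2.56e-06, limma). The groups did not overlap, although passage 27 was the highest untreated array and the only one above its median, so this rise is understated. Prtg, which encodes the cell surface protein protogenin of the early embryo, read 6.37, 6.68 and 6.86 untreated and 11.14, 11.55 and 11.54 with EBIO. Its rise was 4.77 ± 0.17 (SE, adjusted p = 5.46e-07, limma), and every EBIO value lay above every untreated one. Nuak1, an AMPK-related kinase that acts on myosin phosphatase, read 4.72, 4.70 and 5.08 untreated and 9.48, 9.41 and 9.19 with EBIO. It rose by 4.53 ± 0.15 (SE, adjusted p = 3.68e-07, limma). Further genes that rose to this extent were Pmp22 (4.61), a membrane protein of the claudin superfamily, Amot (4.23), a scaffold that binds YAP, and the basement membrane collagens Col4a2 (4.82) and Col4a1 (4.64). Amot read 4.23, 4.11 and 5.68 untreated and 8.92, 8.51 and 9.28 with EBIO, so its untreated values ran below the array median at passages 25 and 26 and above it at passage 27, and the rise is understated here too. Acta1, skeletal muscle actin, rose by 4.12 ± 0.26 (SE, adjusted p = 7.33e-06, limma), from 6.47, 6.50 and 5.50 to 10.30, 10.08 and 10.45.

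Among the falls measured above the array medians on both sides, the steepest were those of Ifitm1 and Ifitm3, interferon-induced membrane proteins that are also abundant in early embryonic and germ cells. Ifitm3 read 10.75, 10.93 and 11.05 untreated and 4.73, 5.57 and 5.46 with EBIO, a fall of 5.66 ± 0.22 (SE, adjusted p = 7.18e-07, limma). Ooep, an oocyte protein of the subcortical maternal complex, read 10.75, 10.86 and 10.40 untreated and 5.13, 5.36 and 5.06 with EBIO and fell by 5.49. Cbr3, a carbonyl reductase, read 10.60, 10.13 and 10.65 untreated and 5.04, 5.01 and 5.09 with EBIO and was lowest among untreated arrays at passage 26. It fell by 5.41. Mylpf, a fast skeletal myosin light chain (-4.64), the transcription factor gene Klf2 (-4.58), the lysosomal membrane protein gene Laptm5 (-4.42), Lrrc2 (-4.40) and Apoe (-4.28), which encodes the lipid carrier apolipoprotein E, fell as well. Apoe read 12.34, 12.11 and 11.82 untreated and 7.54, 8.07 and 7.82 with EBIO, with no overlap, and its EBIO values stayed far above the array medians.

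Some genes crossed the array median altogether. On all 3 untreated arrays 119 of the higher genes were below the median and on all 3 EBIO arrays above it, and 184 of the lower genes did the reverse. RMA compresses the dim end of its scale, so these differences are understated and their order is not resolved. Fosl2, an AP-1 transcription factor, read 3.59, 3.59 and 3.75 untreated and 8.80, 8.82 and 8.71 with EBIO. Lhfp, a tetraspan membrane protein gene, read 3.80, 3.48 and 3.82 untreated and 8.65, 8.89 and 8.16 with EBIO, and Gata3, a transcription factor of trophoblast and other lineages, read 4.29, 4.19 and 3.78 untreated and 7.44, 7.94 and 6.95 with EBIO. All 3 of these genes were dim without EBIO and well separated with it. In the other direction Morc1, a germ line ATPase that silences transposons, read 9.73, 9.61 and 9.86 untreated and 4.06, 3.97 and 3.63 with EBIO. Fgf4, the growth factor that ES cells secrete and that primes them to differentiate, read 9.74, 9.67 and 9.51 untreated and 4.19, 4.20 and 4.14 with EBIO. Enpp3, an ectonucleotide pyrophosphatase of the cell surface, read 9.46, 9.25 and 9.13 untreated and 4.14, 4.32 and 3.93 with EBIO. Pdgfc, a platelet-derived growth factor, read 8.61, 8.69 and 8.83 untreated and 4.16, 4.23 and 4.30 with EBIO. The differences were 5.13, 4.87 and 3.36 for the first group and -5.85, -5.46, -5.15 and -4.48 for the other, with standard errors of 0.12 to 0.25.

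**Figure D2:**
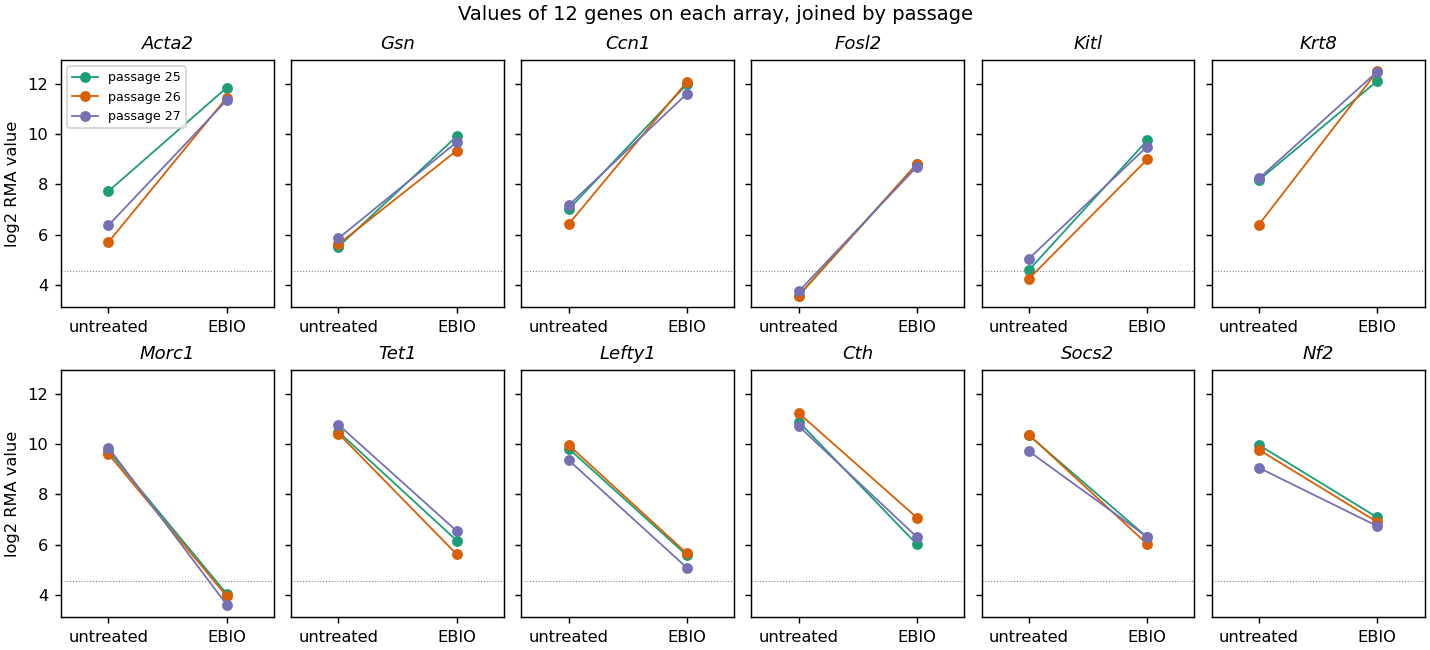
Values of 12 genes on each of the 6 arrays (y axis, log2 RMA value), with the untreated and the EBIO array of the same passage joined by a line. The dotted line is the mean of the array medians. In every panel the 3 untreated values and the 3 EBIO values do not overlap; Acta2 and Krt8 show the widest spread among untreated arrays, and Morc1 and Fosl2 cross the dotted line.

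Most of the listed genes of actin stress fibres and their regulators rose. This list and those below were chosen with earlier results of these data known. Their shares beside those of all tested genes are therefore descriptions and not independent tests. Of 40 tested genes 34 (85.0%, against 23.2% of all tested genes) were higher and none was lower (6 not called; 0 lower at an unadjusted p under 0.05, limma), 26 of them by at least 2-fold, and the median difference was 1.41 against -0.048 over all genes. The count stayed between 27 and 35 under every alternative tried. Gsn, the actin-severing protein gelsolin, read 5.53, 5.63 and 5.86 untreated and 9.91, 9.34 and 9.68 with EBIO, a rise of 3.97 ± 0.17 (SE, adjusted p = 1.1e-06, limma). Caldesmon (Cald1), which binds actin and tropomyosin, read 8.35, 7.88 and 8.95 untreated and 11.86, 11.82 and 11.79 with EBIO, and its untreated value was lowest at passage 26. The tropomyosins Tpm1 (3.13) and Tpm2 (3.02) and the calponin Cnn2 (2.69) rose too, as did Actg1, cytoplasmic gamma actin, which went from 12.63, 12.48 and 12.80 to 13.49, 13.52 and 13.60. Srf, the gene of serum response factor itself, read 6.23, 6.41 and 6.54 untreated and 8.17, 8.03 and 7.98 with EBIO, a rise of 1.67 ± 0.13 (SE, adjusted p = 2.3e-05, limma). Profilin (Pfn1; 0.41, adjusted p = 0.0549, limma) and Pdlim1 (0.16, adjusted p = 0.335, limma) were not called, but with passage as a block Pfn1 was called higher (adjusted p = 0.0156, limma). Smooth muscle markers belong to the same cytoskeleton: Tagln read 7.78, 6.41 and 7.13 untreated and 11.91, 11.94 and 11.87 with EBIO and Acta2 read 7.72, 5.70 and 6.37 untreated and 11.84, 11.44 and 11.34 with EBIO, both highest at passage 25 among untreated arrays.

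SRF binds a 10-base element named the CArG box, and TEAD factors bind GGAATG, which reads CATTCC on the opposite strand. The 250 bases before the RefSeq start of each gene (GRCm38.p6) were searched on both strands. A CArG box was present in 7 of 32 actin genes that rose and had a window (21.9%), in 1.6% of 27025 genes and in 1.4% of the 9813 tested genes with a window. The TEAD hexamer was present in 9 of these 32 (28.1%) and in 8 of 10 YAP and TEAD genes that rose (80.0%), against 14.4% of all genes and 12.8% of tested genes. The AP-1 element TGANTCA was present in 4 of the 32 actin genes (12.5%) and in 0 of 8 AP-1 factor genes that rose, against 7.8% and 5.3%. Some listed genes are known as targets of these factors, so the shares are not independent of how the lists were made, and a match is a sequence and not a measured binding site. The 150 bases before the start of 4 genes of the actin cytoskeleton are shown because they hold CArG boxes, which stand in capitals; in Acta1, which was outside the actin list, the capitals also mark a TEAD hexamer. Actg1 lies at chr11:120348496-120348645 (minus strand), Srf at chr17:46556163-46556312 (minus strand), Cnn2 at chr10:79988450-79988599 (plus strand) and Acta1 at chr8:123894776-123894925 (minus strand), and each sequence is read 5′ to 3′ along the strand of its gene.
Actg1: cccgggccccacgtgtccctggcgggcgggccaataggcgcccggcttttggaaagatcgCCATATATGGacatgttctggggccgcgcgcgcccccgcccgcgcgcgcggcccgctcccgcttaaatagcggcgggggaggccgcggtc
Srf: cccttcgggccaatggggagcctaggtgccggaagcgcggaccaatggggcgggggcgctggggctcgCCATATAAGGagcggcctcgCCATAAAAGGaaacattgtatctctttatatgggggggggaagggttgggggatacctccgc
Cnn2: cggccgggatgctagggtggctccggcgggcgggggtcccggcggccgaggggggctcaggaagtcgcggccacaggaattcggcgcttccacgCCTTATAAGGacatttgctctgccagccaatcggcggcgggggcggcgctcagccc
Acta1: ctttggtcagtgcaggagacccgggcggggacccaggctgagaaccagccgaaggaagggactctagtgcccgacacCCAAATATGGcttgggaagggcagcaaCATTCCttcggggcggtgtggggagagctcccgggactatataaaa
The Srf window holds 2 CArG boxes.

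Genes of the YAP and TEAD route were higher in 12 of 21 (57.1%) and lower in 2 (9.5%), against 23.2% and 21.0% of all tested genes. Their median difference was 0.93. Ccn1, a matricellular protein and target of YAP, read 7.01, 6.42 and 7.17 untreated and 11.97, 12.07 and 11.60 with EBIO, and Ccn2, its relative, read 8.08, 8.03 and 8.65 untreated and 12.23, 12.03 and 11.80 with EBIO. Their rises were 5.01 ± 0.21 (SE, adjusted p = 1.07e-06, limma) and 3.77 ± 0.19 (SE, adjusted p = 2.56e-06, limma). Amotl2, an angiomotin that binds YAP, read 8.84, 8.30 and 8.56 untreated and 11.70, 11.99 and 11.78 with EBIO and rose by 3.25. Vgll3, a TEAD cofactor, read 4.19, 4.07 and 5.64 untreated and 8.92, 8.64 and 9.21 with EBIO, with passage 27 the highest untreated array and the only one above its median. Among the genes of the factors themselves, Wwtr1, which encodes the YAP relative TAZ and was singled out after its values were seen, read 7.33, 7.17 and 7.20 untreated and 8.72, 8.70 and 8.58 with EBIO and rose by 1.43. Yap1 measured 9.37 ± 0.04 without and 9.45 ± 0.17 with EBIO (SD, n = 3 each; 0.08, adjusted p = 0.652, limma) and Tead2 differed by 0.29 (adjusted p = 0.242, limma), and neither was called. The members that fell were Dlc1 (-0.97) and Nf2. Nf2, whose product merlin is an upstream activator of the Hippo kinases that restrain YAP, read 9.96, 9.77 and 9.06 untreated and 7.09, 6.91 and 6.74 with EBIO, a fall of 2.68 ± 0.23 (SE, adjusted p = 3.53e-05, limma). Its lowest untreated value, at passage 27, still lay far above the highest EBIO value. The 150 bases before the starts of 3 genes that rose are shown because they hold the TEAD hexamer, here in its CATTCC form and in capitals. They are Ccn1 at chr3:145649986-145650135 (minus strand), Amotl2 at chr9:102717654-102717803 (plus strand) and Vgll3 at chr16:65815039-65815188 (plus strand). Ccn2, which rose more than Amotl2, is not among them, and no hexamer was found for it.
Ccn1: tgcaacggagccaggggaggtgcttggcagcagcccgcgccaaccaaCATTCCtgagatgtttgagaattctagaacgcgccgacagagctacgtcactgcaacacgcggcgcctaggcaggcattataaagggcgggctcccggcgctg
Amotl2: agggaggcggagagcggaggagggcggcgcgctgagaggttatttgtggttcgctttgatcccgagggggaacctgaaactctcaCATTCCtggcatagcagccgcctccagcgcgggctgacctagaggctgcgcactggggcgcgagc
Vgll3: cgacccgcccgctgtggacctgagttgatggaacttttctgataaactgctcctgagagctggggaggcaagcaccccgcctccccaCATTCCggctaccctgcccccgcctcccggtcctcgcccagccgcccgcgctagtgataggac
In these 3 windows the hexamer ended at positions -98, -60 and -58 from the start.

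AP-1 transcription factors, dimers of Jun and Fos family proteins, were higher in 8 of 12 (66.7%, against 23.2% of all tested genes). No member was lower (4 not called, 0 lower at an unadjusted p under 0.05, limma), and the median was 0.81. Jun read 4.88, 4.70 and 4.91 untreated and 8.64, 8.53 and 8.68 with EBIO and Fos read 5.43, 4.99 and 5.16 untreated and 7.91, 8.63 and 8.16 with EBIO. Both rose on every array, Jun by 3.79 ± 0.12 (SE, adjusted p = 2.99e-07, limma) and Fos by 3.04 ± 0.20 (SE, adjusted p = 9.46e-06, limma). Junb rose by 1.81, and Fosl2, given above, rose most. Batf (-0.05) and Mafg (-0.20) were not called (adjusted p = 0.754 and 0.362, limma).

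**Figure D3:**
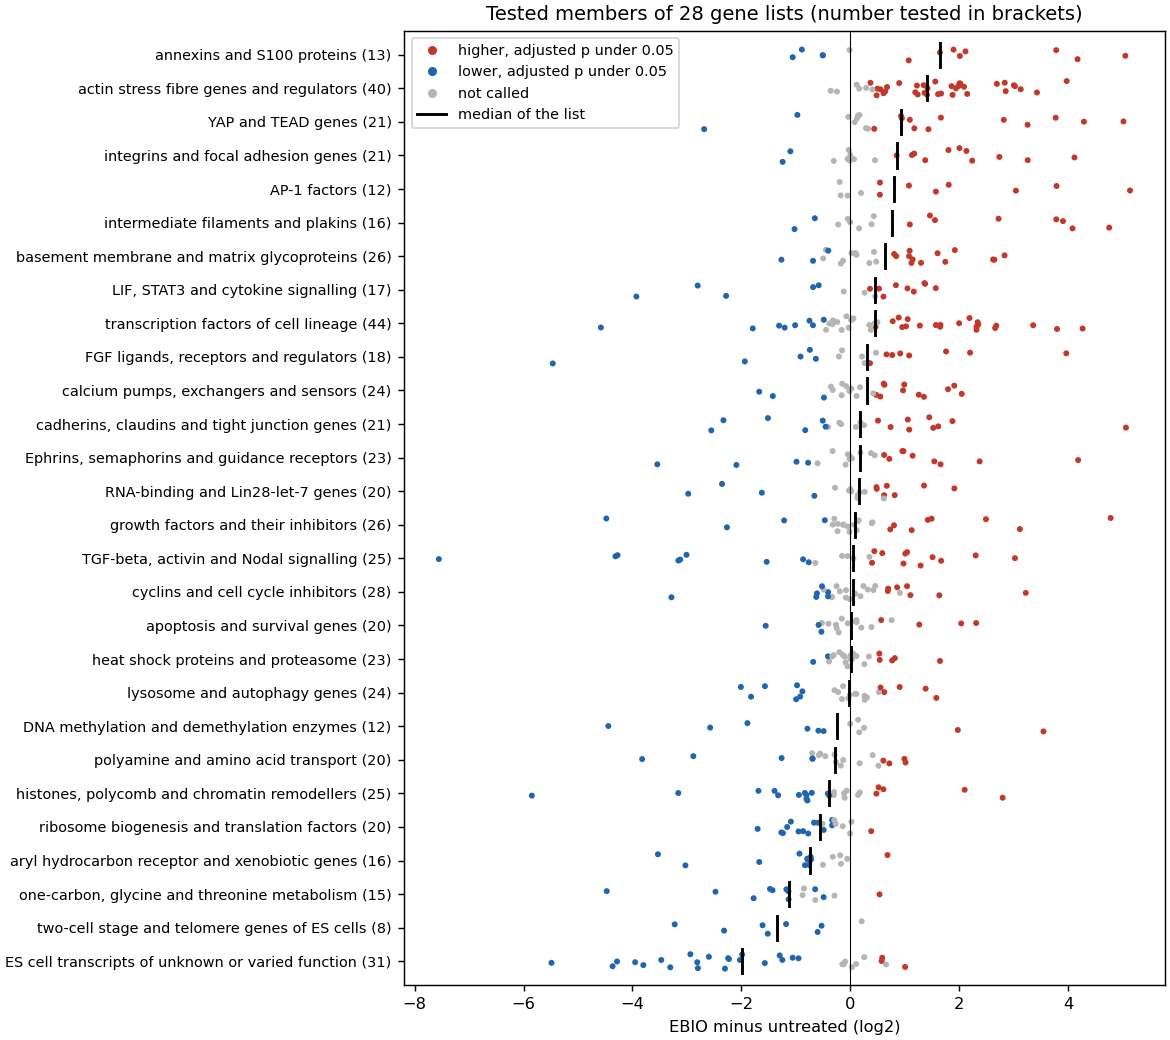
Difference between EBIO and untreated ES cells (x axis, log2) for the tested members of 28 gene lists, with the number tested in brackets. Each point is a gene (red higher, blue lower, grey not called), black ticks are list medians, and points are spread vertically for legibility. Annexin and actin genes have the highest medians (1.65 and 1.41), and one-carbon, two-cell stage and varied ES cell transcripts the lowest (-1.13, -1.35 and -1.99).

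Cell adhesion genes moved in both directions. Integrin and focal adhesion genes were higher in 11 of 21 (52.4%) and lower in 2 (9.5%), against 23.2% and 21.0% of all tested genes. Their median was 0.85. The 2 lower genes were Tns3 (-1.24) and Itga9 (-1.10), and 1 of them was called with the filter at the 75th percentile. Parva, the integrin-linked adaptor parvin, read 4.75, 4.72 and 4.74 untreated and 8.88, 9.13 and 8.55 with EBIO. It rose by 4.12 ± 0.16 (SE, adjusted p = 6.88e-07, limma); Cavin1, a coat protein of caveolae, rose by 3.26, Itga3 by 2.74 and the beta 1 integrin Itgb1 by 2.24. Itgb5 was not called (-0.01, adjusted p = 0.973, limma). Of 13 annexins and S100 proteins, calcium-binding proteins of membranes and cytoskeleton, 8 were higher (61.5%) and 4 lower (30.8%), with a median of 1.65. The count of 4 fell to 1 without the passage 26 pair and with the filter at the 75th percentile. Anxa2 read 7.43, 6.49 and 7.42 untreated and 12.40, 12.13 and 11.96 with EBIO, Anxa3 read 6.87, 5.70 and 7.01 untreated and 10.64, 10.97 and 10.48 with EBIO and S100a6 read 7.13, 6.23 and 7.17 untreated and 10.99, 10.95 and 9.92 with EBIO. In all 3 genes the passage 26 untreated array was the lowest, and in none did the groups overlap. S100a13 fell by 1.06.

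Intermediate filament and plakin genes were higher in 8 of 16, a share above the 23.2% of all tested genes. Krt8 and Krt18, the keratin pair of simple epithelia, read 8.17, 6.41 and 8.24 untreated and 12.10, 12.49 and 12.48 with EBIO and 8.64, 7.54 and 8.34 untreated and 11.97, 12.42 and 12.37 with EBIO, again lowest at passage 26 among untreated arrays. Krt19 rose by 3.78 and Dsp, the desmosome protein desmoplakin, by 3.90, and Krt42 fell by 1.02. Lmnb1, lamin B1, was not called (-0.22, adjusted p = 0.412, limma). Among cadherin, claudin and tight junction genes 9 of 21 were higher (42.9%) and 6 lower (28.6%), against the same 23.2% and 21.0%. The lower count was 3 without the passage 25 pair or without the passage 26 pair. Cdh2, N-cadherin, read 4.25, 4.55 and 5.53 untreated and 10.19, 9.54 and 9.78 with EBIO. Cldn6 (1.88) and Tjp1 (1.52), the tight junction scaffold ZO-1, rose, while the connexin Gjb5 (-2.33) and the epithelial splicing regulator Esrp1 (-2.55) fell. The claudin gene Cldn4 (-1.51) and Rab25 (-0.83) fell as well, and Cldn4 was not called without the passage 25 pair or without the passage 26 pair. The connexin Gja1 (-0.17, adjusted p = 0.477) and alpha-catenin, Ctnna1 (0.19, adjusted p = 0.23), were not called (limma).

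Matrix genes outside the type IV collagens were higher in 13 of 26 and lower in 3, the latter 1 when either EBIO array of passage 25 or 26, the untreated passage 26 array or either of these pairs was left out. The higher share lay above the 23.2% of all tested genes and the lower share below the 21.0%. The collagen chaperone Serpinh1 read 7.46, 7.84 and 6.52 untreated and 10.20, 10.44 and 9.68 with EBIO, a rise of 2.83 ± 0.33 (SE, adjusted p = 0.000189, limma). Thbs1, thrombospondin 1 (2.64), Sparc (2.62) and Plod1 (1.92), a collagen lysyl hydroxylase, rose as well, and the gelatinase Mmp2 fell by 1.27. Fibronectin (Fn1) read 10.77, 10.34 and 10.43 untreated and 10.69, 10.21 and 10.70 with EBIO: the groups overlapped, and it was not called (0.02, adjusted p = 0.935, limma). Its 95% interval ran from -0.39 to 0.43.

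In the LIF route the largest rises were those of kinases, a phosphatase and a feedback inhibitor. Of 17 tested genes 9 were higher (52.9%) and 5 lower (29.4%, 3 genes without the passage 26 pair), against 23.2% and 21.0% of all tested genes. The median was 0.46. The kinases Jak1 (1.37) and Jak2 (1.36), the phosphatase Ptpn11 (1.57), also known as SHP2, and the inhibitor Socs3 (1.17) rose. Socs2, a suppressor of cytokine signalling, read 10.35, 10.37 and 9.72 untreated and 6.30, 6.04 and 6.32 with EBIO, a fall of 3.93 ± 0.19 (SE, adjusted p = 2.15e-06, limma). Bcl3 (-2.28) and Spry4 (-2.80), an inhibitor of ERK signalling, fell. Spry4 read 7.68, 7.75 and 9.05 untreated and 5.19, 5.32 and 5.55 with EBIO, with passage 27 the highest array of each group. Stat3 itself missed the threshold (0.46, adjusted p = 0.0523, limma), but with passage as a block it was called higher (adjusted p = 0.00729, limma).

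TGF-beta, activin and Nodal signalling had its largest rises among receptor genes and its largest falls among ligands and their partners. Of 25 genes 11 were higher (7 without the passage 25 pair) and 9 lower. Both shares lay above the 23.2% and 21.0% of all tested genes. The receptor genes Tgfbr3 (3.02), Tgfbr2 (2.30), Acvr1 (1.67) and Tgfbr1 (1.51) were higher. Tgfbr2 read 4.22, 4.36 and 4.29 untreated and 6.80, 6.49 and 6.48 with EBIO, below the array medians without EBIO. The ligand genes Gdf3 (-4.31) and Inhbb (-3.16), the Nodal antagonist Lefty1 and the co-receptor Tdgf1 were lower. Lefty1 read 9.82, 9.96 and 9.37 untreated and 5.58, 5.66 and 5.09 with EBIO, a fall of 4.27 ± 0.21 (SE, adjusted p = 1.84e-06, limma). Inhbb, a subunit of activin B, read 6.47, 8.21 and 6.95 untreated and 4.12, 4.06 and 3.98 with EBIO, highest among untreated arrays at passage 26. Tdgf1 read 11.60, 11.58 and 11.77 untreated and 4.55, 3.85 and 3.89 with EBIO. With EBIO it lay at or under the array medians, so its fall of 7.55 is understated.

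Of 18 FGF pathway genes 8 were higher (44.4%) and 5 lower (27.8%, 3 genes without the passage 25 pair and with the filter at the 75th percentile). Beside Fgf4, the ligand Fgf17 fell by 1.94, whereas the receptors Fgfr2 (2.20) and Fgfr1 (1.76) and the cell surface proteoglycan Gpc4 (3.96) rose. Fgfr1 read 6.82, 7.10 and 6.82 untreated and 8.75, 8.62 and 8.65 with EBIO. Of 26 growth factors and inhibitors 8 (30.8%) were higher and 4 (15.4%) lower, against 23.2% and 21.0% of all tested genes. Igf2 (3.11), Igf1r (2.49) and Igfbp4 (1.49) of the insulin-like growth factor system rose, and Vegfc (-2.27) and the receptor gene Erbb3 (-1.22) fell. Igfbp2 of the same system was lower (-0.47, adjusted p = 0.0369, limma). Its call was lost without any 1 EBIO array, the untreated array of passage 25 or 26, or the pair of either passage. Midkine (Mdk) was not called (-0.05, adjusted p = 0.863, limma). Of 23 ephrin, semaphorin and guidance genes 9 were higher (39.1%) and 4 lower (17.4%, under the 21.0% of all tested genes). Efnb2, ephrin B2, read 5.13, 5.40 and 6.05 untreated and 9.86, 9.47 and 9.79 with EBIO and rose by 4.18. The netrin receptor gene Unc5b rose by 2.37, while netrin 1 itself (Ntn1) read 8.18, 8.44 and 8.27 untreated and 4.56, 4.70 and 5.00 with EBIO, a fall of 3.54 ± 0.15 (SE, adjusted p = 1.02e-06, limma). The ephrin receptor gene Epha2 fell by 2.09.

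Chromatin genes were lower in 13 of 25 (52.0%, against 21.0% of all tested genes) and higher in 5 (2 without the passage 26 pair), with a median of -0.39. After Morc1 the largest fall was that of Phc1, a subunit of polycomb repressive complex 1, which read 11.29, 10.88 and 10.56 untreated and 7.73, 7.89 and 7.63 with EBIO and fell by 3.16. The cofactors of polycomb repressive complex 2 Jarid2 (-1.69) and Mtf2 (-1.39) fell too. Hmga2, an architectural factor, rose by 2.10, and the linker histone gene H1f2 by 2.80. The demethylase gene Kdm1a was not called (-0.12, adjusted p = 0.49, limma).

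Of 12 enzymes of DNA methylation and demethylation 6 were lower and 2 higher. The lower share lay above the 21.0% of all tested genes and the higher share below the 23.2%. Tet1, the dioxygenase that oxidises methylcytosine in ES cells, read 10.49, 10.42 and 10.76 untreated and 6.17, 5.62 and 6.55 with EBIO, a fall of 4.44 ± 0.23 (SE, adjusted p = 2.42e-06, limma). Tet2 (-2.57), the de novo methyltransferase gene Dnmt3a (-1.89) and Uhrf1 (-0.79), which recruits the maintenance enzyme, also fell. Gadd45g (3.55) and Gadd45b (1.97), stress-induced genes, rose. Dnmt1 (0.25, adjusted p = 0.19) and Dnmt3b (0.16, adjusted p = 0.729) were not called (limma), although Dnmt3b was called higher without the untreated passage 27 array (adjusted p = 0.0342, limma). Dnmt3b read 9.80, 9.61 and 10.97 untreated and 10.11, 10.09 and 10.68 with EBIO: passage 27 was the highest array in each group.

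A mixed list of 17 two-cell stage and telomere genes had 11 with a named probe set, and 8 could be tested. Of these 8 genes 7 were lower (87.5%, against 21.0% of all tested genes). The count does not describe a two-cell stage programme alone. None was higher (1 not called, 0 higher at an unadjusted p under 0.05, limma), and the median was -1.35. Zfp42, known as Rex1 and also among the ES cell markers above, read 11.81, 12.14 and 11.86 untreated and 9.05, 8.31 and 8.78 with EBIO. Dppa2 (-2.32), a regulator of two-cell stage genes, Terf1 (-1.61), the telomere-binding protein TRF1, and Zscan10 (-1.52) fell, and Terf2 was not called (0.21, adjusted p = 0.222, limma). Of 31 further ES cell transcripts 21 were lower (67.7%) and 3 higher (9.7%, against 23.2% of all tested genes), with a median of -1.99. The higher count ran from 1 without the passage 25 pair to 5 without the untreated passage 27 array. Beside Ooep the lower genes included Upp1, uridine phosphorylase (-4.36), Jam2 (-4.28), a junctional adhesion molecule, and L1td1 (-3.95), an RNA-binding protein. The rises were led by Bex4 (1.01).

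Transcription factors of cell lineage were higher in 21 of 44 (47.7%) and lower in 8 (18.2%), against 23.2% and 21.0% of all tested genes. Their median was 0.45, and 5 were lower with the filter at the 75th percentile. Sox11, a factor of neural and mesenchymal progenitors, read 5.68, 5.04 and 6.59 untreated and 10.01, 10.08 and 10.00 with EBIO, a rise of 4.26 ± 0.33 (SE, adjusted p = 2.01e-05, limma). Ets1 (3.79), Gata3 and Id1 (2.68), an inhibitor of basic helix-loop-helix factors, rose. Klf2, which read 11.45, 11.41 and 10.82 untreated and 6.89, 6.27 and 6.78 with EBIO, Klf4 (-1.79), Foxd3 (-1.31) and Sox15 (-1.21) fell. Klf9 and Klf5 were not called (-0.24 and -0.39, adjusted p = 0.145 and 0.353, limma), but Klf5 was called lower without the untreated passage 27 array (adjusted p = 0.00978, limma). Of 20 RNA-binding genes 7 were higher (3 without the passage 26 pair, 4 without the EBIO passage 27 array) and 4 lower: Mbnl2, a splicing regulator of differentiated cells, rose by 1.91, and Ptbp2 (-1.62), Rbm47 (-2.36) and Cpsf4l (-2.98) fell.

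One-carbon, glycine and threonine metabolism supplies methyl groups and nucleotides, and mouse ES cells are known to depend on threonine. Of the 15 tested genes of this metabolism 10 (66.7%, against 21.0% of all tested genes) were lower, with a median of -1.13. Cth, cystathionine gamma-lyase, read 10.88, 11.23 and 10.71 untreated and 6.02, 7.08 and 6.31 with EBIO, a fall of 4.47 ± 0.26 (SE, adjusted p = 5.08e-06, limma). Shmt1 (-2.48), serine hydroxymethyltransferase, and Gldc (-1.78), a subunit of the glycine cleavage system, fell on every array, and Psph (-1.48), the last enzyme of serine synthesis, fell as well. The single higher member, Mtr (0.54, adjusted p = 0.0129, limma), was not called without the passage 25 pair, without the passage 26 pair or without the EBIO passage 27 array. Psat1 read 11.01, 11.28 and 11.01 untreated and 9.70, 11.08 and 10.59 with EBIO, an overlap of the groups, and was not called (-0.64, adjusted p = 0.122, limma). It was lower in each passage, by 1.31, 0.19 and 0.43, and was called lower with passage as a block (adjusted p = 0.0282, limma).

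Among 20 genes of polyamines and amino acid transport 4 were higher and 5 lower, shares near the 23.2% and 21.0% of all tested genes; the lower count was 3 without the passage 25 pair, the untreated passage 25 array or the EBIO passage 27 array. Slc7a3, a cationic amino acid transporter, read 10.32, 10.41 and 10.12 untreated and 5.95, 7.20 and 6.23 with EBIO, and its EBIO value at passage 26 was the highest of its group. Slc7a7 fell by 2.88. Along the polyamine route Odc1, ornithine decarboxylase, rose by 1.01, whereas Srm, the next enzyme, spermidine synthase, fell by 1.26. Genes of ribosome biogenesis and translation were lower in 13 of 20 (65.0%), with a median of -0.55: Dkc1 (-1.70), the pseudouridine synthase dyskerin, Wdr12 (-1.27) and Nhp2 (-1.24) fell. Dkc1 read 10.66, 10.74 and 10.40 untreated and 8.59, 9.50 and 8.59 with EBIO, and the passage 26 EBIO array was the highest of its group for this gene too.

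Of 16 genes of the aryl hydrocarbon receptor and of xenobiotic handling 10 were lower (62.5%, against 21.0% of all tested genes). The count was 6 without the passage 26 pair and with the filter at the 75th percentile. Ephx2, soluble epoxide hydrolase, read 8.58, 8.13 and 7.64 untreated and 4.55, 4.42 and 4.77 with EBIO, a fall of 3.53 ± 0.23 (SE, adjusted p = 7.64e-06, limma). The efflux transporters Abcc4 (-3.03) and Abcg2 (-0.93) and the quinone reductase Nqo1 (-1.67) fell. The receptor gene Ahr was the 1 higher member (0.68, adjusted p = 0.0347, limma), a call lost without the passage 25 pair, the passage 26 pair, the untreated array of either or the EBIO passage 27 array. It was also lost with no filter on dim genes and with its probe sets averaged (0.365, adjusted p = 0.0745, limma). Of 24 lysosome and autophagy genes 5 (20.8%, against 23.2% of all tested genes) were higher, 3 without either the untreated or the EBIO array of passage 26, the EBIO array of passage 25 or either pair, and 7 (29.2%, against 21.0%) were lower. Npc1 (1.58), which exports cholesterol from lysosomes, and Map1lc3a (1.38), an autophagosome protein, rose, and the hydrolases Hexa (-2.01), Ctsa (-1.82) and Ctsc (-1.57) fell.

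Cyclins and cell cycle inhibitors were called in 13 of 28, of which 7 were higher (4 without the passage 25 pair) and 6 lower (2 without either the passage 25 or the passage 26 pair, 3 without the untreated array of passage 25 or 26 or the EBIO array of passage 25). These shares, 25.0% and 21.4%, are near the 23.2% and 21.0% of all tested genes. Cdkn2b, the inhibitor p15, read 5.17, 4.68 and 4.84 untreated and 8.18, 8.38 and 7.79 with EBIO, and Cdkn2d (1.10) and Rb1 (1.04) were higher. Cyclin D1 (Ccnd1) read 8.17, 8.54 and 9.01 untreated and 5.37, 4.92 and 5.57 with EBIO, a fall of 3.28 ± 0.24 (SE, adjusted p = 1.54e-05, limma). Ccna2 and Cdk1, genes of cycling cells, were not called (0.09 and 0.32, adjusted p = 0.595 and 0.0973, limma), but with passage as a block Cdk1 was called higher (adjusted p = 0.0414, limma). Of 20 apoptosis genes 4 were higher and 3 lower, neither share above that of all tested genes (5 lower without the untreated passage 27 array, 1 without the passage 25 pair): Bcl2l11, the death activator BIM, rose by 2.31, the executioner caspase gene Casp6 by 2.04 and the survival gene Bcl2l1 by 1.27, while Bid fell by 1.55. Of 23 heat shock and proteasome genes 5 (21.7%) were higher (3 without the passage 25 pair or without the EBIO passage 27 array), led by Hspb8 (1.65), and 2 (8.7%) lower, a count between 0 and 3 when an array or pair was left out; the list's median was 0.01.

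Calcium-handling genes are of interest because the channels that EBIO opens are gated by calcium. Of 24 tested genes 11 (45.8%) were higher and 3 (12.5%) lower, against 23.2% and 21.0% of all tested genes. Their median was 0.30. Stim2, a sensor of calcium in the endoplasmic reticulum, read 4.90, 5.32 and 5.89 untreated and 7.39, 7.32 and 7.54 with EBIO, and Orai1, the plasma membrane channel that STIM proteins open, read 6.55, 6.81 and 6.47 untreated and 8.29, 8.65 and 8.28 with EBIO. They rose by 2.05 ± 0.23 (SE, adjusted p = 0.000158, limma) and 1.79 ± 0.15 (SE, adjusted p = 3.7e-05, limma). The calcineurin subunit gene Ppp3ca (1.91) and the plasma membrane pump gene Atp2b1 (1.35) rose, and Itpr3 (-1.67), a release channel, and Nfatc4 (-1.42), a calcineurin target, fell. The reticulum pump gene Atp2a2 was not called (0.02, adjusted p = 0.923, limma). Among the channel genes Kcnn2 lay below the test's limit, and Kcnn1, Kcnn3 and Kcnn4 differed by -0.01, -0.27 and -0.36, none of them called (adjusted p = 0.952, 0.295 and 0.0599, limma). Kcnn4 read 5.70, 5.46 and 5.70 untreated and 5.34, 5.07 and 5.36 with EBIO and was lower in each passage; with passage as a block its adjusted p was 0.0204 (limma).

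Some abundant genes stayed close to their level. Among the 500 brightest tested genes 202 were called, 43 of them by at least 2-fold, and for 174 the 95% interval of the difference lay within 0.5 of 0. The 10 tightest of these were Hsp90aa1, Psmd4, Eef1a1, Ddx5, Pomp, Rpl7a, Ipo7, Psma3, Snrpg and Btg1, genes of protein folding, the proteasome, translation, RNA processing, nuclear import and growth control. Hsp90aa1 read 13.31, 13.28 and 13.43 untreated and 13.28, 13.39 and 13.35 with EBIO, and the interval of its difference ran from -0.26 to 0.26. Eef1a1, the translation elongation factor, read 13.55, 13.60 and 13.71 untreated and 13.58, 13.62 and 13.64 with EBIO, and its interval ran from -0.27 to 0.26. The 6 arrays ended at 13.85 to 13.94, so a rise of Hsp90aa1, Eef1a1 or Rpl7a, which lie close to that end, would be understated and their intervals do not bound it. Psmd4, a proteasome subunit in the middle of the scale, read 10.83, 10.88 and 10.89 untreated and 10.82, 10.88 and 10.86 with EBIO, and its interval ran from -0.26 to 0.24.

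The size of the differences varied between the 3 passages. The 3 within-passage differences of a called gene spanned a median of 0.39, and those of a gene called by at least 2-fold a median of 0.49. Several of the widest spans belonged to genes whose untreated level varied between passages. Runx1t1, a transcriptional corepressor, read 4.91, 6.40 and 6.77 untreated and 3.30, 3.31 and 3.24 with EBIO, so it fell by 1.61 at passage 25, 3.09 at passage 26 and 3.54 at passage 27. Serpinb6c read 5.02, 6.62 and 6.62 untreated and 3.99, 3.73 and 4.08 with EBIO, with a like pattern. The EBIO values of both genes lay under the medians of all 3 arrays, so their falls are understated and a difference in size between passages is not resolved. Ccne2, cyclin E2, read 3.94, 4.83 and 5.95 untreated and 6.83, 6.09 and 6.70 with EBIO; its differences were 2.89, 1.26 and 0.75, and it was not called without the untreated passage 26 array, the EBIO passage 25 array, or the pair of either passage. Krt8 rose by 3.94, 6.08 and 4.24 and Pou3f1, a POU factor of the primed epiblast, by 2.41, 3.31 and 1.13 at passages 25, 26 and 27. Untreated levels that varied without a call were found for Glipr1 and Adarb1, which read 3.84, 4.58 and 6.25 and 8.25, 7.81 and 5.92 without EBIO. In both the EBIO arrays followed the same order of passages, at 3.91, 4.17 and 5.29 and 7.58, 7.51 and 6.12. The order was kept for Ap1s3 too, but not for Ninl, Plac8, Rnpc3 or Atf5, further variable genes without a call. For Ninl the untreated values rose from passage to passage, whereas the EBIO values were 4.81, 4.64 and 5.74.

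**Figure D4:**
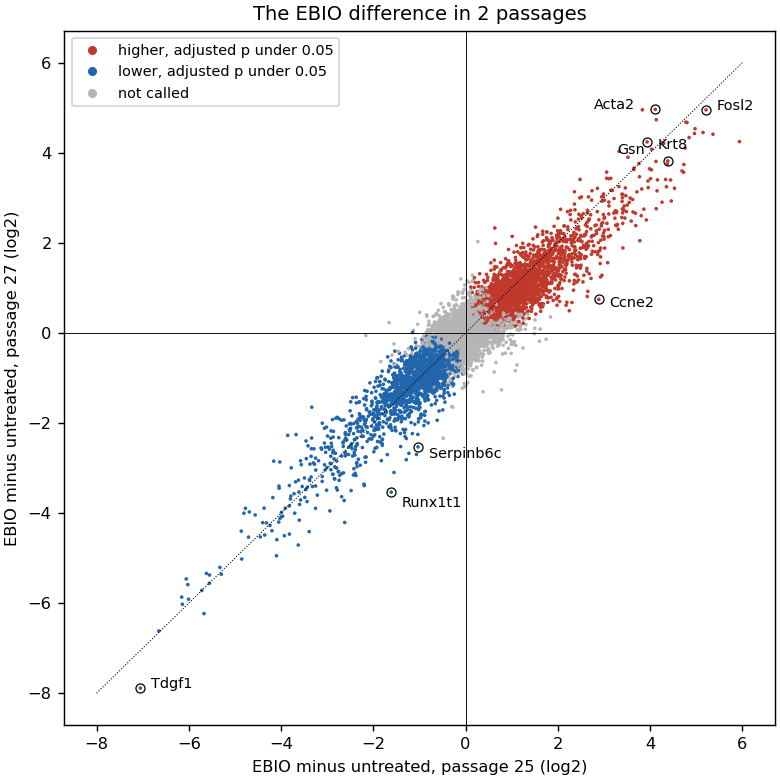
Difference between EBIO and untreated ES cells at passage 27 (y axis, log2) against that at passage 25 (x axis, log2) for the 12168 tested genes. Each point is a gene, red where higher, blue where lower and grey where not called over the 3 passages; the dotted line marks equal differences. Krt8 (3.94 and 4.24) lies near the line, Runx1t1 (-1.61 and -3.54) and Ccne2 (2.89 and 0.75) below it.

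The untreated passage 27 array differed from the other untreated arrays along part of the same direction. Across tested genes, its difference from the passage 26 array correlated at 0.268 with the EBIO difference of passage 25, and its difference from the passage 25 array at 0.124 with that of passage 26. Both are descriptions over genes, which are not independent replicates. Of the 1198 genes that rose at least 2-fold, 581 were highest at passage 27 among untreated arrays, as were 4123 of the 12168 tested. Of the 969 that fell as far, 458 were lowest there, a share near that of all tested genes, of which 5333 were lowest there.

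With passage as a block 1067 further genes were called and none was lost. Malat1, a nuclear long noncoding RNA, read 10.10, 9.09 and 8.67 untreated and 10.92, 10.12 and 9.65 with EBIO: the groups overlapped and passage 25 was the highest in each, yet each EBIO array exceeded its own control, by 0.81, 1.02 and 0.98. Its adjusted p was 0.0911 without and 0.000219 with the block (limma). Mdn1, a ribosome assembly ATPase, read 8.36, 8.25 and 9.26 untreated and 7.23, 7.26 and 8.47 with EBIO, and fell by 1.13, 1.00 and 0.79 in the 3 passages. Its adjusted p was 0.0639 without and 0.000245 with the block (limma). Plac8, Nbeal1 and Trib3 were also called with the block (adjusted p = 0.00675, 0.00267 and 0.0102, limma), with differences of -1.30, 1.04 and -0.98. Trib3, a target of amino acid stress, read 7.53, 8.42 and 8.01 untreated and 5.69, 7.96 and 7.38 with EBIO.

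A single value per gene hid opposite changes for some genes. When all 20628 named probe sets above the filter were tested one by one, 22 of 5218 genes with at least 2 tested probe sets had a probe set called higher and another called lower (limma, adjusted p under 0.05), and in 4 of them both differences reached 1. The count depends on the arrays: it was 56 without the untreated passage 27 array, 51 with passage as a block, and between 3 and 13 without the untreated array of passage 25 or 26, the EBIO array of passage 25 or 27, or the pair of passage 25 or 26. Zmynd8, a chromatin reader, had probe sets at 1.66 ± 0.17, 1.03 ± 0.13 and -2.95 ± 0.19 (SE). Their group means went from 7.50 to 9.16, from 5.78 to 6.81 and from 8.91 to 5.96. Ints6, a subunit of the Integrator complex, had 1 probe set at 1.16 ± 0.25 and 2 at -1.43 ± 0.23 and -1.54 ± 0.14. Zbtb44 had 1 at -1.19 ± 0.16 and 1 at 1.46 ± 0.45, and Ankrd17 had 3 that rose, 1 that was not called and 1 at -1.04 ± 0.22. Rtn4, the reticulon gene that encodes Nogo proteins, rose by 0.95 to 1.42 in 4 probe sets and fell by 0.94 in another. The places of these probe sets on their transcripts were not analysed here.

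**Figure D5:**
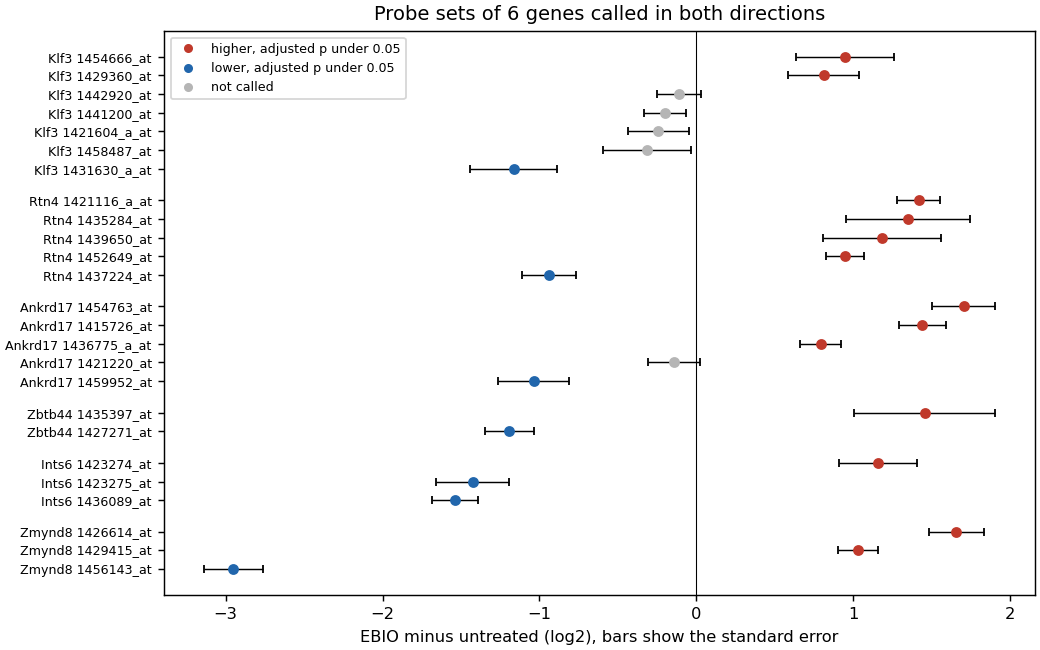
Difference between EBIO and untreated ES cells (x axis, log2) for the probe sets of 6 genes with calls in both directions, one probe set per line with its platform name. Points are limma estimates, bars their standard errors (n = 3 arrays each), red higher, blue lower and grey not called. The Zmynd8 probe sets span -2.95 to 1.66 and those of Ints6 -1.54 to 1.16.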

How the data were processed

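RNA of 6 ES cell samples (3 untreated, 3 with EBIO) was labelled once with biotin and hybridised to Affymetrix arrays, per the labels' protocols. The authors deposited log2 values; the submitters' processing notes name RMA, and no version or chip package is given in the sources used here. No read depth applies to arrays, and their number limits the precision. Of 45101 probe sets 64 were controls; 34958 had 1 gene symbol in the platform annotation, 932 several and 9211 none, and only the first kind was used. For 34741 of them the symbol was taken from a RefSeq gene table (GRCm38.p6), whether or not it differed from that of the annotation.

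Each gene was represented by its brightest probe set, by the mean of the 6 ES arrays (18193 genes, 9010 with more than 1 probe set). Genes above the array median on at least 3 of 6 arrays were tested. Groups were compared with limma 3.58.1 in R 4.3.3 (lmFit, eBayes), without a block, with Benjamini-Hochberg adjustment over all 12168 genes and a threshold of 0.05; the procedure was tested on simulated data. Intervals are 95% limma intervals. Replicate numbers pair the samples: both groups took samples 1 to 3 from passages 25 to 27. Within pairs the deviations from group means had correlations of 0.329, 0.228 and 0.62. The EBIO sample of the pair at 0.228 correlated slightly more, at 0.247, with untreated sample 1. For that pair the values therefore do not single out the stated partner, and the pairing rests on the labels. Passage as a block was an alternative, beside other filters, normalizations, probe set rules and left-out arrays.

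Members, gene lists and tests were chosen with earlier results of these data known. Named genes were the 20 largest rises and falls without overlap, the 15 largest measured above the array medians on both sides, per list the 4 largest called in each direction and the 2 brightest not called, the 10 steadiest, most variable and largest uncalled genes, 10 genes with opposite probe sets, marker genes, and Kcnn1 to Kcnn4. Actg1, Srf and Cnn2 were named for their promoters. Wwtr1 was chosen after its values were seen. Promoter sequences are RefSeq's (GRCm38.p6).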

Additional observations from a re-analysis of the deposited data

How the results depend on the processing

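Alternatives were quantile normalization, centring, other filters, averaging the probe sets of a gene, trended and robust eBayes, passage as a block, and leaving out each array or passage pair. The counts of higher and lower genes were 2610 and 2803 after quantile normalization and 2962 and 2319 after centring on array medians. With the replicate number (passage) as a block they were 3306 and 3142, and no call was lost or turned. Leaving out arrays gave 1552 to 2907 lower genes, the first without both passage 26 arrays and the second without the untreated passage 27 array. When the probe sets of each gene were averaged, 781 genes rose at least 2-fold. Genes with opposite probe sets numbered 51 with the block and 3 to 56 when arrays were left out; the cause was not tested. The same averaging turned the sign of Ints6 (-0.471), Klf3 (-0.039), Med25 (0.003), Ppp3cb (0.345), Zbtb44 (0.061) and Zmynd8 (-0.039), and no other alternative turned the sign of a called gene that is named here. With 3 arrays a group, small changes of variable genes could not be resolved, and differences of genes near the array medians are understated.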
